A study of Mus musculus with 16 samples.

Results

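The ligands and receptors of axon guidance were followed in mouse lung fibroblasts that lack meflin and in wild type fibroblasts, each with and without TGF-β1. Members were chosen by gene symbol: semaphorins of classes 3 to 7, plexins, neuropilins, slits, robos, netrins, UNC5 receptors, ephrins and Eph receptors. Of the 22911 genes named on the array, 72 symbols matched, and 62 of them were tested among 15394 genes after a filter on dim probes. The other 10 (Epha5, Epha8, Epha10, Ntn5, Ntng1, Ntng2, Plxna4os1, Sema3g, Unc5cl and Unc5d) had no group in which each of the 4 arrays was well above background, so they have no value here. Sema3g came closest, with 5 of 16 arrays well above background. Unc50, Unc5cl and Plxna4os1 share letters with the families but are no guidance receptors, and of these only Unc50 was tested.

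Primary lung fibroblasts came from 8-week-old female mice and were cultured on, with 4 arrays in each of 4 groups. The groups were Meflin knockout cells given recombinant TGF-β1 (5 ng/ml) for 48 h, Meflin knockout cells given vehicle, wild type C57BL/6J cells given the same TGF-β1, and wild type C57BL/6J cells given vehicle. Meflin is the protein of the gene Islr, a membrane-anchored glycoprotein of mesenchymal cells, and TGF-β1 is a cytokine that turns fibroblasts into matrix-secreting, contractile myofibroblasts. The kind of knockout allele and the number of mice behind each culture are not given in the sources used here, so the p-values measure the spread between these arrays.

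Guidance cues were first described as signals that steer growing axons. Secreted class 3 semaphorins act through neuropilins and plexins, and most membrane-bound semaphorins through plexins alone. Slits act through robos, netrins through DCC, neogenin and UNC5 receptors, and ephrins through Eph receptor kinases on touching cells. The same cues control adhesion and movement of endothelial cells, leukocytes and fibroblasts, largely through the actin skeleton. In a bulk culture, fewer cells of a type and less RNA per cell cannot be told apart.

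Promoter sequence is shown for 4 members whose TGF-β1 responses frame the results: Unc5b and Ntn4, the largest rises in knockout cells among members above background in every group, Sema5a, the largest fall among such members, and Slit3, which went opposite ways in the genotypes. The 250 bases before each start site are from RefSeq (build GRCm38.p6), 5′ to 3′ on the gene's strand. Capitals mark CAGAC, a letter string bound by SMAD proteins, or its reverse complement GTCTG.
Unc5b, chr10:60831582-60831831, minus strand: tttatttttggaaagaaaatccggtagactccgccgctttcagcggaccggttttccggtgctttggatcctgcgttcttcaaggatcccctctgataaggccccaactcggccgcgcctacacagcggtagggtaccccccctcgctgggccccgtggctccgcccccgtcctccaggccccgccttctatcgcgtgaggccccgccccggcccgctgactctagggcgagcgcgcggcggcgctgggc
Ntn4, chr10:93640799-93641048, plus strand: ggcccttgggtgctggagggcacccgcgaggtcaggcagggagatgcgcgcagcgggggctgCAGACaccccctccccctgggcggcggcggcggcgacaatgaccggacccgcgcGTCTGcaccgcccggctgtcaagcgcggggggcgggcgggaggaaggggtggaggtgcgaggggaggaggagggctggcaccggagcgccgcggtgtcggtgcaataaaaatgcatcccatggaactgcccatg
Sema5a, chr15:32244563-32244812, plus strand: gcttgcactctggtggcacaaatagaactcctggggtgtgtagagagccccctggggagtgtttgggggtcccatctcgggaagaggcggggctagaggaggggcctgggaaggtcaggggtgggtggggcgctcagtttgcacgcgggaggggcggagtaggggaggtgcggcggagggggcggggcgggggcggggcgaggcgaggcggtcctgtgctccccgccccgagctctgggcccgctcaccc
Slit3, chr11:35121206-35121455, plus strand: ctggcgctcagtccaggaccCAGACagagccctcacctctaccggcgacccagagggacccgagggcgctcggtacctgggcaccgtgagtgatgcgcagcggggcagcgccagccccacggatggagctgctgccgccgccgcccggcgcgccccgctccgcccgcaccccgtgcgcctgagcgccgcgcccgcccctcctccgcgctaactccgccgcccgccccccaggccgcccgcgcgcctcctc
These windows are rich in G and C, from 66.8% in Unc5b to 78.8% in Slit3, and hold between 17 (Sema5a) and 35 (Slit3) CpG sites. Ntn4 had 2 matches to CAGAC and Slit3 had 1, while Unc5b and Sema5a had 0 in the bases shown.

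Of the 72 members, 62 had at least 1 promoter window of 300 bases (250 before and 50 after the start), in all 77 windows. CAGAC on either strand stood in 61.0% of them, against 49.6% of all 32851 windows. Among members that rose with TGF-β1 in knockout cells it stood in 57.1% of 14 windows, and among those that fell in 57.1% of 42 windows. GGAATG, bound by TEAD factors, stood in 28.6% of windows of the risers, 9.52% of windows of the fallers and 14.7% of all windows. TGANTCA, bound by AP-1, stood in 0 and 4.76% of those windows and in 7.81% of all windows. The 3 motifs were searched on both strands, and with so few windows these shares are descriptions only.

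Levels are given as log2 signal after each array was shifted to a common 75th percentile, and they compare arrays for 1 probe, not different genes. Each difference is a log2 difference ± its standard error from limma, a linear model, with 4 arrays per group. The model gives each gene a spread common to the 4 groups and moderated by the spreads of all genes. A gene was called when its p-value, adjusted by the Benjamini-Hochberg method over 15394 genes, was under 0.05. The 75th percentile of raw intensity was 382.1 to 445.9 in knockout TGF-β1 arrays, 469.6 to 518.9 in knockout vehicle arrays, 428.6 to 452.1 in wild type TGF-β1 arrays and 485.8 to 525.6 in wild type vehicle arrays. Arrays of a group correlated at 0.99587 or more over the 15394 genes tested, and 2 arrays of every group lay on each of 2 slides.

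Islr itself checked the labels. Its log2 signal was 1.65, 1.77, 1.80 and 1.82 in knockout cells with TGF-β1 and 1.68, 1.34, 1.41 and 1.37 in knockout cells with vehicle, against 8.23, 8.35, 8.42 and 8.36 in wild type cells with TGF-β1 and 10.88, 10.78, 10.87 and 10.75 in wild type cells with vehicle. No knockout array was well above background. With TGF-β1 the knockout signal of Islr was lower by at least 19.7-fold (limma adjusted p = 6.35e-18). With vehicle it was lower by at least 138-fold (limma adjusted p = 1.6e-19). Where its probe lies relative to the deleted part is not given in the sources used here.

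Most guidance genes responded to TGF-β1, and in knockout cells the response ran mainly downwards. In knockout cells 53 of 62 members were called, 13 higher and 40 lower, that is 85.5% against 82.6% of all genes, so the total is near the background. The direction was not: 35.9% of all genes fell, and the members had a median difference of -0.78 against 0.10 over all genes. At least 2-fold falls were seen for 24 members, 38.7% of them, against 13.6% of all genes, and at least 2-fold rises for 6 members, against 9.58% of all genes. In wild type cells 51 members were called, 18 higher and 33 lower, or 82.3% against 68.6% of all genes. Falls were called for 27.3% of all genes there. The wild type median was -0.21 against 0.08 over all genes, with 9 falls (14.5% of members against 6.45% of all genes) and 0 rises of at least 2-fold (3.26% of all genes). In knockout cells 6 ligands rose and 21 of 32 fell, and 7 receptors rose and 19 of 29 fell. In wild type cells 11 ligands rose and 14 fell, and 7 receptors rose and 19 fell.

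**Figure D1:**
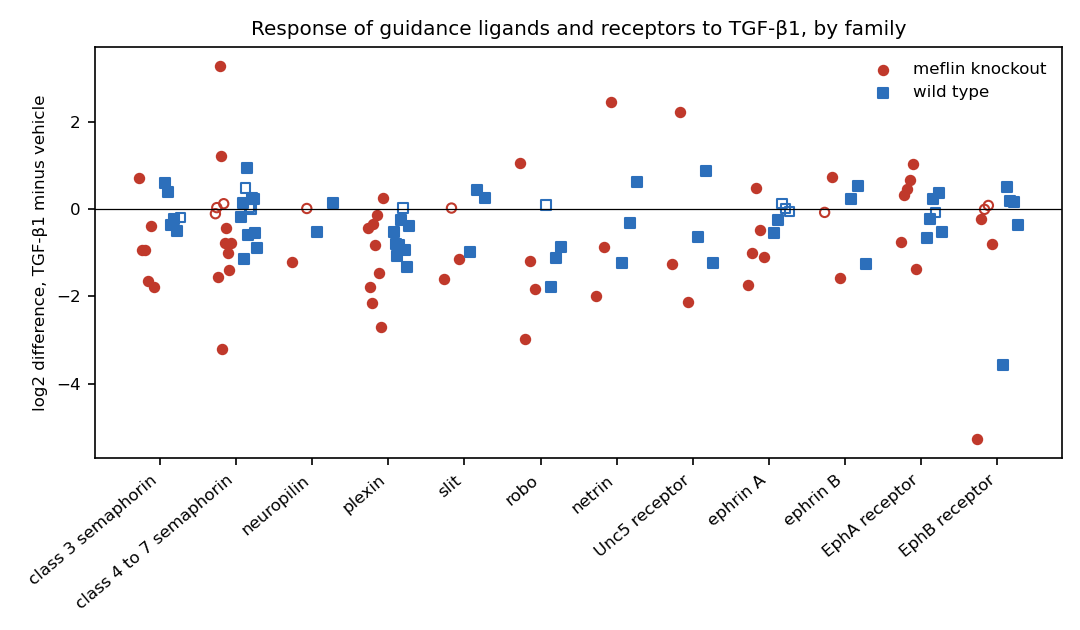
Log2 difference of each tested guidance gene, TGF-β1 minus vehicle, by family (x axis), in meflin knockout cells (red circles) and wild type cells (blue squares), 4 arrays per group; filled marks were called at an adjusted p under 0.05 and open marks were not. Plexins lie almost wholly below 0 in both genotypes, and the red marks spread further from 0 than the blue ones; the Plxnd1 rise in knockout cells is the 1 knockout plexin value above 0, and it turned to -0.07 under quantile normalization.

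Among the secreted class 3 semaphorins, 5 of 6 fell and Sema3a rose in knockout cells, while in wild type cells 2 rose, 3 fell and 1 did not pass. Sema3f, a repellent that acts through neuropilin 2, had signals of 10.29, 10.62, 10.51 and 10.55 in knockout cells with TGF-β1, against 12.13, 12.26, 12.35 and 12.39 with vehicle. For Sema3f in wild type cells the signals were 11.88, 12.15, 12.20 and 12.17 with TGF-β1, against 12.31, 12.23, 12.34 and 12.26 with vehicle. The knockout arrays with TGF-β1 were the lowest, and the wild type arrays with TGF-β1 lay just below their vehicle arrays. The difference was -1.79 ± 0.08 in knockout cells (limma adjusted p = 1.74e-11), a 3.46-fold fall, and -0.18 ± 0.08 in wild type cells, where it did not pass (limma adjusted p = 0.0583).

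Sema3d, a secreted cue that also acts in blood vessel patterning, read 11.56, 11.85, 11.59 and 11.66 in knockout cells with TGF-β1, against 13.32, 13.28, 13.34 and 13.28 with vehicle. For Sema3d in wild type cells the values were 12.88, 12.76, 12.87 and 12.86 with TGF-β1, against 13.08, 12.87, 13.06 and 13.21 with vehicle, and these groups overlapped. It fell by 1.64 in knockout cells and by 0.21 in wild type cells. Sema3b, another secreted neuropilin ligand, read 8.21, 8.26, 8.14 and 8.31 in knockout cells with TGF-β1, against 8.96, 9.17, 9.24 and 9.29 with vehicle. For Sema3b in wild type cells the order was the other way, with 9.30, 9.46, 9.53 and 9.47 with TGF-β1, against 9.06, 8.99, 9.05 and 9.02 with vehicle. No treated array overlapped its vehicle arrays in either genotype, and the differences were -0.93 ± 0.07 in knockout cells and 0.41 ± 0.07 in wild type cells.

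Sema3c, which guides vascular and cardiac outflow cells, read 11.38, 11.58, 11.42 and 11.41 in knockout cells with TGF-β1, against 12.40, 12.41, 12.40 and 12.34 with vehicle. For Sema3c in wild type cells the readings were 11.72, 11.71, 11.72 and 11.72 with TGF-β1, against 12.11, 12.02, 12.12 and 12.10 with vehicle. It fell in both genotypes, by 0.94 in knockout cells and by 0.37 in wild type cells. Sema3a, the first described vertebrate semaphorin and a growth cone repellent, read 8.44, 8.43, 8.44 and 8.49 in knockout cells with TGF-β1, against 7.82, 7.68, 7.78 and 7.66 with vehicle. For Sema3a in wild type cells the readings were 8.31, 8.22, 8.17 and 8.10 with TGF-β1, against 7.57, 7.63, 7.54 and 7.65 with vehicle. All treated arrays lay above all vehicle arrays, with rises of 0.71 ± 0.05 in knockout cells and 0.61 ± 0.05 in wild type cells. A dimmer Sema3a probe gave -0.04 in knockout cells, which did not pass, and rose by 0.17 in wild type cells, so the knockout rise rests on 1 of 2 probes. Sema3e, the ligand of plexin D1, fell by 0.38 in knockout cells and by 0.49 in wild type cells.

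Sema5a had the largest fall among members above background on all 16 arrays, and the largest negative interaction of all members. This membrane semaphorin with thrombospondin repeats, whose promoter is shown above, read 9.29, 9.31, 9.25 and 9.24 in knockout cells with TGF-β1, against 12.51, 12.52, 12.43 and 12.45 with vehicle. For Sema5a in wild type cells the signals were 11.70, 11.64, 11.70 and 11.66 with TGF-β1, against 12.31, 12.21, 12.29 and 12.24 with vehicle. No groups overlapped, and the spread within each group was small against the falls. The difference was -3.20 ± 0.03 in knockout cells (limma adjusted p = 2.39e-18), a 9.22-fold fall, and -0.59 ± 0.03 in wild type cells (limma adjusted p = 9.78e-10), a 1.5-fold fall.

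Sema4f, a class 4 membrane semaphorin, was above background only in knockout cells with TGF-β1. It passed the filter on dim probes through that group alone, so its call is not independent of the filter. It read 5.57, 5.54, 5.87 and 5.74 in knockout cells with TGF-β1, against 2.71, 3.29, 2.09 and 1.45 with vehicle. For Sema4f in wild type cells the signals were 3.58, 3.74, 3.67 and 3.06 with TGF-β1, against 2.69, 3.27, 2.57 and 3.57 with vehicle, and none of these 8 arrays was well above background. The Sema4f signal was at least 3.93-fold higher with TGF-β1 in knockout cells. This bound is set by the lowest signal that counts as above background on each array. Sema4g, a class 4 membrane semaphorin, read 6.64, 6.44, 6.29 and 6.55 in knockout cells with TGF-β1, against 5.19, 5.32, 5.24 and 5.31 with vehicle. For Sema4g in wild type cells the signals were 6.13, 6.21, 6.25 and 6.12 with TGF-β1, against 5.29, 5.35, 4.81 and 5.46 with vehicle. It rose in both genotypes, by 1.22 ± 0.11 in knockout cells and by 0.95 ± 0.11 in wild type cells, with no overlap.

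Among the 12 class 4 to 7 semaphorins, 2 rose, 7 fell and 3 did not pass in knockout cells, and 4 rose, 5 fell and 3 did not pass in wild type cells. Besides Sema5a, the knockout falls were those of Sema4d, a plexin B1 ligand (-1.55), Sema6d (-1.40), the plexin C1 ligand Sema7a (-0.78), Sema6a (-0.77), Sema6b (-0.42) and Sema6c, which fell by 1.00. Sema6a had a second, dimmer probe that fell by 1.88 in knockout cells and by 0.86 in wild type cells, where the brighter one differed by 0.01. Sema6c ranged from 7.18 to 7.51 in knockout cells with TGF-β1, against 8.14 to 8.45 with vehicle, and from 8.27 to 8.47 in wild type cells with TGF-β1, against 8.09 to 8.27 with vehicle. A dimmer Sema6c probe differed by only 0.09 in knockout cells and did not pass, so the fall rests on 1 probe. The wild type rises were those of Sema4g (0.95), Sema6b (0.25), Sema6c (0.23) and Sema4c (0.15), the last of which turned to -0.22 under quantile normalization and did not pass on its 2 dimmer probes (-0.09 and -0.06). Sema4a, which also acts on T cells, read 10.05, 10.20, 9.99 and 10.18 in knockout cells with TGF-β1, against 10.36, 10.06, 10.29 and 10.11 with vehicle. For Sema4a in wild type cells the signals were 10.37, 10.32, 10.46 and 10.34 with TGF-β1, against 10.52, 10.43, 10.59 and 10.64 with vehicle. Its treated and vehicle arrays overlapped in both genotypes, with differences of -0.10, which did not pass, in knockout cells and -0.18, which did, in wild type cells.

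Plexins, the signalling receptors of the semaphorins, mostly fell with TGF-β1. In knockout cells 8 of 9 fell, against 35.9% of all genes, and Plxnd1 rose, a rise that turned to -0.07 under quantile normalization, and in wild type cells 8 of 9 fell, against 27.3% of all genes, and Plxnb2 did not pass. Plxnc1, the receptor of Sema7a, had signals of 6.53, 6.48, 6.53 and 6.76 in knockout cells with TGF-β1, against 9.46, 9.34, 9.16 and 9.20 with vehicle. For Plxnc1 in wild type cells the signals were 8.12, 8.10, 7.98 and 8.10 with TGF-β1, against 9.32, 9.32, 9.45 and 9.53 with vehicle. The groups did not overlap in either genotype. It fell 6.56-fold in knockout cells (limma adjusted p = 4.8e-14) and 2.51-fold in wild type cells (limma adjusted p = 7.23e-10).

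Plxna3, a co-receptor for class 3 semaphorins, read 6.38, 6.51, 6.34 and 6.26 in knockout cells with TGF-β1, against 8.34, 8.62, 8.60 and 8.51 with vehicle. For Plxna3 in wild type cells the signals were 7.45, 7.18, 7.37 and 7.35 with TGF-β1, against 8.45, 8.32, 8.51 and 8.40 with vehicle. It fell by 2.15 in knockout cells and by 1.08 in wild type cells, again with no overlap. Plxnb3, a plexin B receptor, read 3.93, 4.07, 3.95 and 4.25 in knockout cells with TGF-β1, of which 1 array was well above background, against 5.46, 5.43, 5.61 and 5.56 with vehicle. For Plxnb3 in wild type cells the signals were 5.21, 5.15, 5.32 and 4.78 with TGF-β1, against 5.94, 5.89, 6.20 and 6.15 with vehicle. The 4 groups lay at 4 different levels, with the lowest in knockout cells with TGF-β1. A second, dimmer Plxnb3 probe differed by -0.15 in knockout cells and by -0.49 in wild type cells and passed in neither.

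Plxnd1, a receptor of Sema3e known from endothelium, went opposite ways. Its signals were 12.87, 12.86, 12.95 and 12.93 in knockout cells with TGF-β1, against 12.54, 12.64, 12.71 and 12.65 with vehicle. For Plxnd1 in wild type cells the signals were 12.04, 12.12, 12.24 and 12.13 with TGF-β1, against 12.49, 12.43, 12.59 and 12.59 with vehicle. The differences were 0.27 ± 0.05 in knockout cells and -0.39 ± 0.05 in wild type cells, without overlap in either. Of the other plexins, Plxna2 fell by 1.79 in knockout cells and by 0.80 in wild type cells, Plxnb1, the receptor of Sema4d, by 0.83 and 0.24, and Plxna1 by 0.42 and 0.53 in the same order. Plxna4 fell by 0.33 in knockout cells and by 0.82 in wild type cells, and Plxnb2 by 0.12 in knockout cells.

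The neuropilins, co-receptors that bind class 3 semaphorins and VEGF, differed. Nrp1 fell by 1.21 in knockout cells and by 0.51 in wild type cells. Nrp2 had 3 usable probes that disagreed in wild type cells: the brightest over all arrays gave 0.15, while the other 2 gave -0.43 and -0.67. In knockout cells none of the 3 Nrp2 probes passed, with differences of 0.02, 0.07 and -0.05. Between genotypes with TGF-β1 the brightest Nrp2 probe gave -0.06, which did not pass. The other 2 were higher in knockout cells, by 0.48 and 0.61, and both passed. For knockout response minus wild type response, the brightest gave -0.14, which did not pass, and the other 2 gave 0.50 and 0.62, which did. The wild type Nrp2 call on the brightest probe also turned to -0.11 under quantile normalization.

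Markers of other cells also changed with TGF-β1, where 35.9% of all genes fell in knockout cells and 27.3% in wild type cells. All 11 endothelial markers listed fell with TGF-β1 in both genotypes, and their summed signal was 4410 to 4870 in knockout cells with TGF-β1, against 10100 to 10400 with vehicle, and 6170 to 6660 in wild type cells with TGF-β1, against 10900 to 11300 with vehicle. Cdh5, the endothelial cadherin, fell by 1.62 in knockout cells and by 0.85 in wild type cells, and Vwf, the von Willebrand factor, fell by 2.50 in knockout cells and by 1.85 in wild type cells. Of 10 tested macrophage and leukocyte markers 7 fell and 1 rose in each genotype, with a summed signal of 41400 to 44500 in knockout cells with TGF-β1, against 78200 to 81800 with vehicle, and 57000 to 60100 in wild type cells with TGF-β1, against 90300 to 106000 with vehicle. Cd68 fell by 2.34 in knockout cells and by 1.29 in wild type cells. Plxnc1, Sema4d and Sema4a are known from leukocytes, and Robo4, Plxnd1, Nrp1, Unc5b and Efnb2 from endothelium or blood vessels. Of these, Plxnc1, Sema4d, Robo4 and Nrp1 fell in knockout cells, and Sema4a did not pass. Plxnd1 (0.27), Unc5b (2.24) and Efnb2 (0.74) rose there. The part of these cells in the guidance results was not tested.

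Slits and robos split within their own families. Slit3, a secreted robo ligand, had signals of 10.76, 10.86, 10.73 and 10.93 in knockout cells with TGF-β1, against 11.82, 11.96, 11.99 and 12.05 with vehicle. For Slit3 in wild type cells the signals were 12.13, 12.14, 12.18 and 12.18 with TGF-β1, against 11.89, 11.85, 11.92 and 11.91 with vehicle. The knockout arrays with TGF-β1 were the lowest of the 4 groups and the wild type arrays with TGF-β1 the highest. The difference was -1.13 ± 0.05 in knockout cells (limma adjusted p = 1.39e-11), a 2.2-fold fall, and 0.27 ± 0.05 in wild type cells (limma adjusted p = 0.000295).

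Slit2, the most studied robo ligand, read 12.51, 12.64, 12.35 and 12.50 in knockout cells with TGF-β1, against 12.56, 12.51, 12.47 and 12.35 with vehicle, and these overlapped. For Slit2 in wild type cells the signals were 12.94, 12.78, 12.74 and 12.75 with TGF-β1, against 12.43, 12.28, 12.31 and 12.42 with vehicle. It rose by 0.45 ± 0.07 in wild type cells and differed by 0.03 ± 0.07 in knockout cells, where it did not pass. Slit1 fell by 1.60 in knockout cells, where 2 of the 4 arrays with TGF-β1 were well above background, and by 0.99 in wild type cells.

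Robo1, the main slit receptor of non-neural cells, read 10.62, 10.70, 10.46 and 10.59 in knockout cells with TGF-β1, against 9.48, 9.50, 9.61 and 9.54 with vehicle. For Robo1 in wild type cells the signals were 9.30, 9.36, 9.21 and 9.25 with TGF-β1, against 9.18, 9.11, 9.18 and 9.26 with vehicle. It rose 2.08-fold in knockout cells (limma adjusted p = 4.27e-11) and differed by 0.10 ± 0.05 in wild type cells, where it did not pass (limma adjusted p = 0.108). Robo2, its neighbour on chromosome 16 with no coding gene between, went down. Robo2 read 4.07, 4.28, 2.94 and 4.55 in knockout cells with TGF-β1, with 3 arrays well above background, against 6.93, 7.04, 6.97 and 6.80 with vehicle. For Robo2 in wild type cells the signals were 4.73, 4.50, 4.82 and 4.80 with TGF-β1, against 6.59, 6.45, 6.44 and 6.52 with vehicle. The falls were 2.97 in knockout cells and 1.79 in wild type cells.

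Robo3 and Robo4 also lie side by side, on chromosome 9, and both fell: Robo3 by 1.19 in knockout cells and by 1.12 in wild type cells, and Robo4, the robo of endothelium, by 1.82 and 0.87 in the same order. In all, 1 of 4 robos rose and 3 fell in knockout cells, and 0 rose and 3 fell in wild type cells.

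Of 3 netrins and of 3 UNC5 receptors, 1 rose and 2 fell in each family and in each genotype. Ntn4, a netrin of basement membranes whose promoter is shown above, read 7.39, 7.42, 7.26 and 7.18 in knockout cells with TGF-β1, against 4.81, 5.11, 4.92 and 4.54 with vehicle. For Ntn4 in wild type cells the signals were 5.12, 5.47, 5.42 and 4.86 with TGF-β1, against 4.90, 4.39, 4.67 and 4.39 with vehicle, and these overlapped. It rose 5.53-fold in knockout cells (limma adjusted p = 5.75e-10) and 1.55-fold in wild type cells (limma adjusted p = 0.00176). Ntn1, the classical attractant that also acts in lung branching, read 5.55, 5.73, 5.71 and 5.52 in knockout cells with TGF-β1, against 7.72, 7.66, 7.61 and 7.46 with vehicle. For Ntn1 in wild type cells the signals were 6.80, 6.54, 6.78 and 6.52 with TGF-β1, against 7.83, 8.01, 7.80 and 7.94 with vehicle. It fell by 1.98 in knockout cells and by 1.23 in wild type cells. Ntn3 fell by 0.86 in knockout cells and by 0.32 in wild type cells, while its dimmer probe, at -0.21 and 0.31, passed in neither.

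Unc5b, a netrin receptor of blood vessels, rose in both genotypes. It read 14.01, 14.02, 14.05 and 13.99 in knockout cells with TGF-β1, against 11.73, 11.74, 11.80 and 11.84 with vehicle. For Unc5b in wild type cells the signals were 12.78, 12.79, 12.85 and 12.78 with TGF-β1, against 11.87, 11.88, 11.98 and 11.93 with vehicle. Each group kept to a narrow band, and the treated bands lay well above the vehicle bands. The rise was 2.24 ± 0.04 in knockout cells (limma adjusted p = 1.38e-16), or 4.73-fold, and 0.89 ± 0.04 in wild type cells (limma adjusted p = 1.82e-11), or 1.85-fold. Unc5c, another netrin receptor, moved the other way, with 6.57, 6.60, 6.79 and 6.35 in knockout cells with TGF-β1, against 8.57, 8.72, 8.72 and 8.84 with vehicle. For Unc5c in wild type cells the signals were 7.21, 7.19, 7.37 and 7.42 with TGF-β1, against 8.49, 8.63, 8.50 and 8.49 with vehicle. It fell by 2.13 in knockout cells and by 1.23 in wild type cells. Unc5a fell by 1.26 in knockout cells and by 0.63 in wild type cells.

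**Figure D2:**
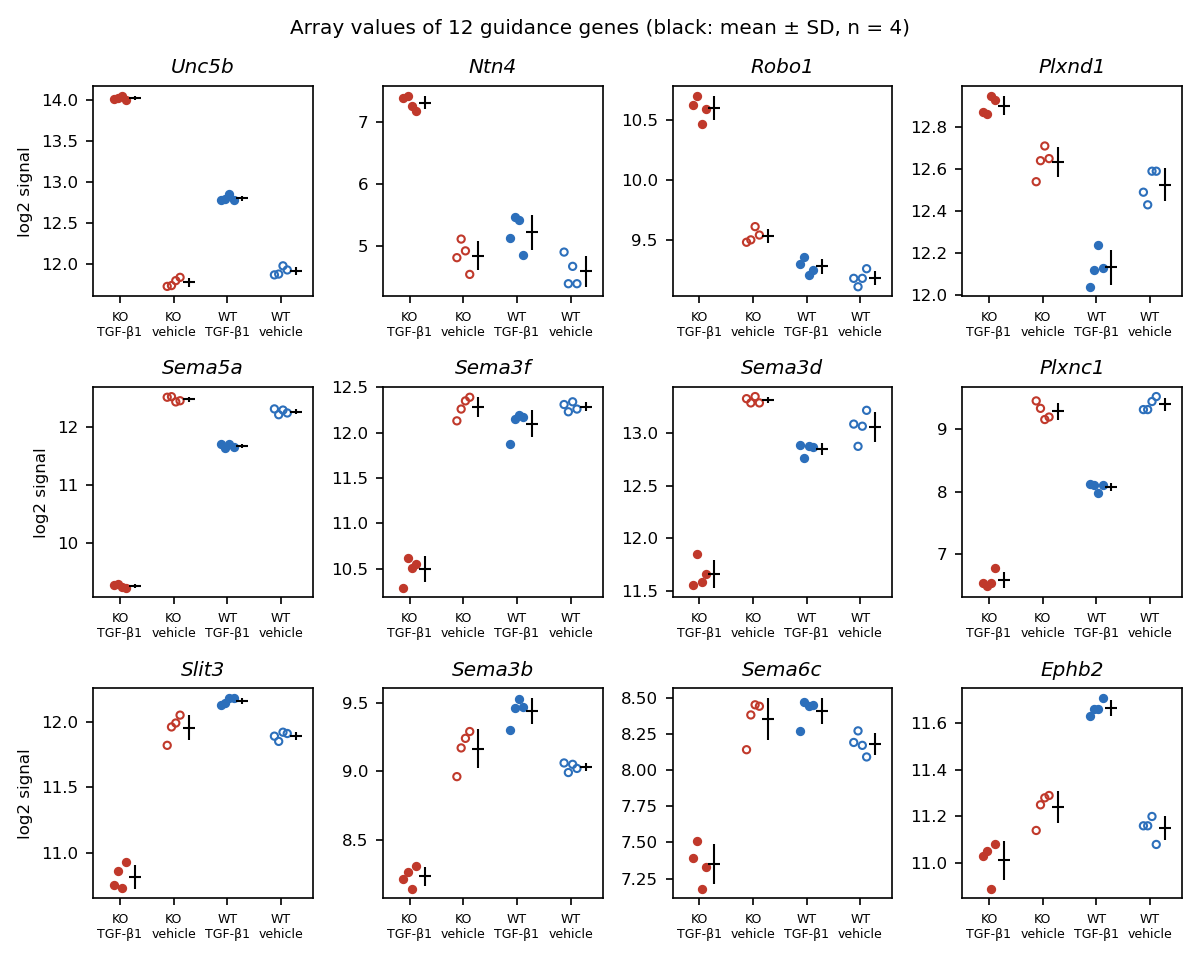
Log2 signal of 12 guidance genes on each of the 16 arrays, by group (x axis, knockout in red, wild type in blue, TGF-β1 filled, vehicle open); black marks are the mean ± SD of 4 arrays, and each panel has its own y axis, which does not start at 0. In the upper row the knockout arrays with TGF-β1 lie above all others, in the middle row below all others, and in the lower row they have the lowest mean while the wild type arrays with TGF-β1 have the highest; for Ephb2 and Sema6c this rests on 1 of 2 probes.

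The ephrins, ligands held on the cell surface, included 1 rise and 4 falls among 5 ephrin A genes in knockout cells, against 2 falls and 3 that did not pass in wild type cells. Efna1 fell by 1.73 in knockout cells and by 0.55 in wild type cells, and Efna2 by 1.00 and 0.25 in the same order. Efna5 fell by 1.09 and Efna4 by 0.47 in knockout cells, and neither passed in wild type cells, where they differed by -0.05 and 0.02. Both dimmer Efna5 probes also fell in knockout cells, by 0.74 and 0.54, but rose in wild type cells, by 0.19 and 0.33, so its wild type result differs between probes. Efna3 rose by 0.50 in knockout cells. Efna1, Efna3 and Efna4 lie next to each other on chromosome 3, so the riser sits between the fallers.

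Efnb2, a transmembrane ephrin of arteries and of fibroblasts, read 11.76, 11.81, 11.75 and 11.74 in knockout cells with TGF-β1, against 10.96, 11.04, 11.05 and 11.07 with vehicle. For Efnb2 in wild type cells the signals were 11.30, 11.32, 11.33 and 11.36 with TGF-β1, against 10.76, 10.69, 10.83 and 10.91 with vehicle. It rose in both, by 0.74 ± 0.04 in knockout cells and by 0.53 ± 0.04 in wild type cells, with no overlap. Efnb3, the third ephrin B, read 4.36, 4.12, 4.87 and 4.34 in knockout cells with TGF-β1, with 2 arrays well above background, against 6.01, 6.01, 5.78 and 6.21 with vehicle. For Efnb3 in wild type cells the signals were 4.74, 4.59, 4.94 and 4.73 with TGF-β1, against 5.86, 6.07, 6.20 and 5.87 with vehicle. It fell by 1.58 in knockout cells and by 1.25 in wild type cells.

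Of 6 EphA receptor genes 4 rose and 2 fell in knockout cells, while 2 rose, 3 fell and 1 did not pass in wild type cells. Of 5 EphB receptor genes 0 rose, 3 fell and 2 did not pass in knockout cells, while 3 rose and 2 fell in wild type cells. The difference between the types was not tested. Epha4, which binds ephrins of both types, read 8.64, 8.66, 8.72 and 8.58 in knockout cells with TGF-β1, against 8.00, 8.03, 7.82 and 8.02 with vehicle. For Epha4 in wild type cells the signals were 7.74, 7.67, 7.82 and 7.51 with TGF-β1, against 7.83, 7.70, 7.76 and 7.74 with vehicle, with overlap. It rose by 0.68 ± 0.06 in knockout cells and differed by -0.07 ± 0.06 in wild type cells, where it did not pass. Epha6, a receptor of ephrin A, was dim at 4.84, 4.92, 5.02 and 5.08 in knockout cells with TGF-β1, against 3.69, 3.81, 4.27 and 3.90 with vehicle. Of its knockout vehicle arrays, 3 were well above background. For Epha6 in wild type cells the signals were 4.46, 4.27, 4.37 and 4.62 with TGF-β1, against 4.11, 3.79, 3.96 and 4.39 with vehicle. It rose by 1.05 ± 0.13 in knockout cells and by 0.37 ± 0.13 in wild type cells, where the groups overlapped.

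Epha7, a receptor of ephrin A, read 5.68, 5.50, 5.89 and 5.44 in knockout cells with TGF-β1, against 6.92, 7.06, 7.01 and 7.03 with vehicle. For Epha7 in wild type cells the signals were 6.17, 6.20, 6.37 and 6.24 with TGF-β1, against 6.76, 6.78, 6.78 and 6.69 with vehicle. It fell by 1.38 in knockout cells and by 0.51 in wild type cells, and in knockout cells its 3 dimmer probes fell by 0.37, 1.67 and, for the dimmest, dropped by 2.23. Epha3 rose by 0.46 in knockout cells and by 0.24 in wild type cells, and Epha1 fell by 0.76 and 0.66 in the same order.

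Ephb1, a receptor of ephrin B, had the largest fall of all members. It read 2.06, 1.81, 1.77 and 3.23 in knockout cells with TGF-β1, where no array was well above background, against 7.58, 7.43, 7.46 and 7.53 with vehicle. For Ephb1 in wild type cells the signals were 4.60, 4.29, 4.12 and 4.40 with TGF-β1, against 7.94, 7.76, 8.07 and 7.94 with vehicle, and all 8 were well above background. Ephb1 was at least 11-fold lower with TGF-β1 in knockout cells (limma adjusted p = 1.41e-11) and 11.9-fold lower in wild type cells (limma adjusted p = 4.48e-09).

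Ephb2, which binds ephrin B on neighbouring cells, read 11.03, 11.05, 10.89 and 11.08 in knockout cells with TGF-β1, against 11.14, 11.25, 11.28 and 11.29 with vehicle. For Ephb2 in wild type cells the signals were 11.63, 11.66, 11.66 and 11.71 with TGF-β1, against 11.16, 11.16, 11.20 and 11.08 with vehicle. It fell by 0.23 in knockout cells and rose by 0.52 ± 0.05 in wild type cells. A dimmer Ephb2 probe rose in both, by 0.39 in knockout cells and by 0.37 in wild type cells, and the mean of both probes gave 0.08 in knockout cells, so the knockout fall rests on 1 probe. Ephb6, which lacks kinase activity, fell by 0.79 in knockout cells and by 0.37 in wild type cells, while its dimmer probe, at -0.25 and 0.19, passed in neither. Ephb3 and Ephb4 rose by 0.20 and 0.17 in wild type cells, the first of which turned to -0.09 under quantile normalization, and neither passed in knockout cells.

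The next comparison asked whether the response to TGF-β1 differed between the genotypes, as the interaction term: the response in knockout cells minus that in wild type cells. It was called for 49 of 62 members, 13 higher and 36 lower, that is 79.0% against 58.3% of all genes, of which 26.5% were lower. The median interaction was -0.42 over members and 0.05 over all genes. Of the 44 members called in both genotypes, 37 moved the same way, and 33 of these (89.2%) moved further in knockout cells, against 83.9% of all genes in that position. So a larger response in knockout cells was near the background. The interaction was called for 28 of the 33, and for 1 of the 4 that moved further in wild type cells, Plxna4.

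Opposite calls in the genotypes were found for 7 members, 11.3% of those tested, against 3.96% of all genes. Epha2 and Plxnd1 were higher with TGF-β1 in knockout cells and lower in wild type cells, and Ephb2, Sema3b, Sema6b, Sema6c and Slit3 were lower in knockout cells and higher in wild type cells. Epha2, a receptor of ephrin A1, ranged from 11.37 to 11.50 in knockout cells with TGF-β1, against 11.05 to 11.22 with vehicle, and from 10.80 to 11.01 in wild type cells with TGF-β1, against 10.99 to 11.25 with vehicle. Sema6b, a membrane semaphorin, ranged from 6.60 to 6.72 in knockout cells with TGF-β1, against 6.99 to 7.17 with vehicle, and from 7.43 to 7.61 in wild type cells with TGF-β1, against 7.15 to 7.34 with vehicle. The wild type arrays of Epha2 overlapped between treatments and those of Sema6c overlapped slightly, at 8.27, while the other 5 did not overlap. For Ephb2, Plxnd1 and Sema6c the limits given with their responses hold here too.

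The largest positive interactions were those of Sema4f (2.81 ± 0.45), Ntn4 (1.83 ± 0.21), Unc5b (1.35 ± 0.05), Robo1 (0.96 ± 0.07), Epha4 (0.76 ± 0.09) and Epha6 (0.68 ± 0.19). The largest negative ones were those of Sema5a (-2.62 ± 0.05), Ephb1 (-1.70 ± 0.34), Sema3f (-1.61 ± 0.12), Sema3d (-1.43 ± 0.10), Slit3 (-1.40 ± 0.07) and Plxnc1 (-1.39 ± 0.11). The limma adjusted p of these 12 ran from 1.13e-14 for Sema5a to 0.00612 for Epha6. Sema4f and Ephb1 contain groups below background, so their interactions have no exact size. Sema4f also passed the filter on dim probes only through the group where it was high. For Ephb1 the falls of at least 11-fold in knockout cells and 11.9-fold in wild type cells do not show a difference in response, and its interaction turned to 0.17 under normexp background correction. Among the 12, the 6 negative ones include 4 ligands and the 6 positive ones include 4 receptors. Both roles leaned negative over all tested members. The interaction was higher for 4 and lower for 20 of 32 ligands, and higher for 8 and lower for 16 of 29 receptors. The shares over all genes were 31.9% higher and 26.5% lower.

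**Figure D3:**
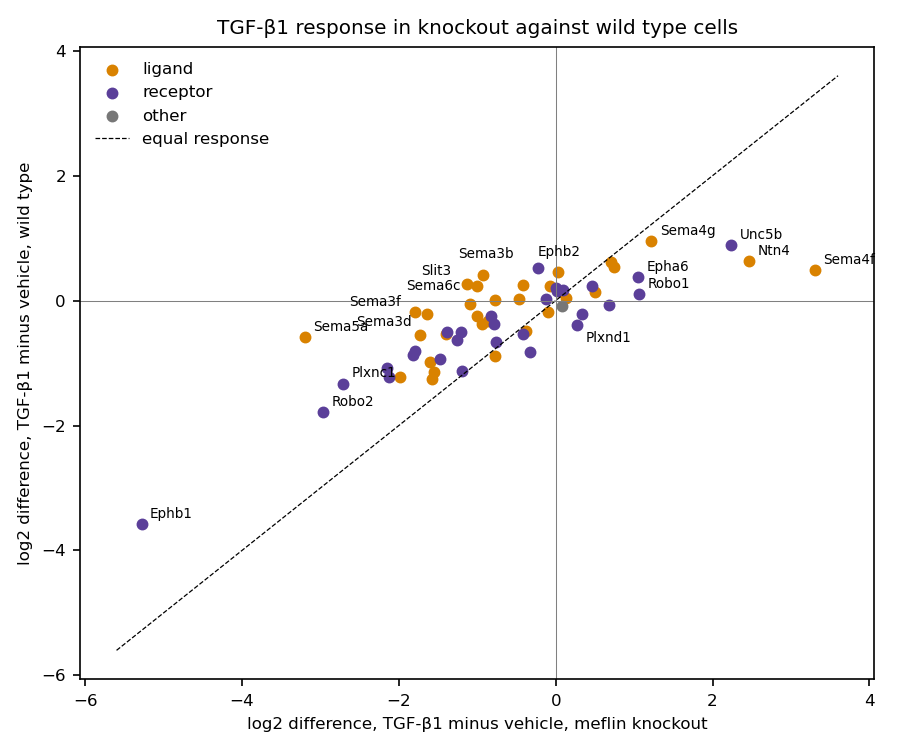
Log2 difference, TGF-β1 minus vehicle, in meflin knockout cells (x axis) and wild type cells (y axis) for the 62 tested symbols, with ligands in orange and receptors in purple; the dashed line marks equal responses. Most points lie nearer 0 on the y axis than on the x axis, and 7 called members, among them Slit3, Sema3b and Plxnd1, lie in the quadrants of opposite responses; Plxnd1 left its quadrant under quantile normalization and the knockout values of Ephb2 and Sema6c rest on 1 probe each.

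The comparison of genotypes with TGF-β1 shares its arrays with the responses above, so its values are given as levels seen from the other side. With TGF-β1, 53 of 62 members differed, 16 higher and 37 lower in knockout cells, that is 85.5% against 70.2% of all genes, with 39.7% higher and 30.5% lower. At least 2-fold differences were called for 4 members higher (3.32% of all genes) and 13 lower (7% of all genes). Sema5a was 5.28-fold, Sema3f 3.05-fold, Plxnc1 2.83-fold, Slit3 2.53-fold and Sema3b 2.31-fold lower in knockout cells. Ephb1 was at least 1.24-fold lower, since its knockout arrays lay below background. Sema4f was at least 3.5-fold, Ntn4 4.27-fold, Robo1 2.48-fold, Unc5b 2.33-fold, Epha4 1.95-fold and Plxnd1 1.7-fold higher in knockout cells. All of these passed with no overlap of arrays, but Sema4f had entered the tests only through the group where it was high. By family, the 3 slits, 4 of 5 EphB receptors and 4 of 5 ephrin A genes were lower in knockout cells with TGF-β1, and 4 of 6 EphA receptors were higher. Among these EphB receptors, Ephb1 has only a bound and Ephb3 differed by -0.11. The dimmer probes of Ephb2 (-0.04) and Ephb6 (-0.32) did not pass. Slit1 was well above background on only 2 of the 4 knockout arrays, and Slit2 changed sign in the log2 values that the authors deposited.

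With vehicle the genotypes differed little. Of 62 members 16 were called, 10 higher and 6 lower in knockout cells, that is 25.8% against 13.2% of all genes (7.06% higher and 6.16% lower). The count fell to 9 without wild type vehicle array 2 or 4, when 11.2% and 12.3% of all genes were called, and to 10 without knockout vehicle array 2 or 4 or wild type vehicle array 3, when 9.65%, 10.2% and 9.78% were. Within slide 1 it was 1, with 1.28% of all genes called, and within slide 2 it was 5, with 6.81% called, each slide having 2 arrays per group. On either slide the members' count was thus near the share of all genes. The 6 largest rises were those of Robo1 (0.35 ± 0.05), Sema3c (0.30 ± 0.04), Epha7 (0.25 ± 0.08), Sema3d (0.25 ± 0.07), Efnb2 (0.23 ± 0.04) and Sema5a (0.22 ± 0.03). The falls without overlap were those of Plxnb3 (-0.53 ± 0.11), Sema4a (-0.34 ± 0.07), Ntn1 (-0.28 ± 0.08) and Unc5b (-0.13 ± 0.04). No member was called at 2-fold or more, as were 0.065% of all genes higher and 0.247% lower. Sema3c and Sema3d, with 1 kept probe each, were higher in knockout cells with vehicle and lower in knockout cells with TGF-β1. The vehicle calls of Plxnb3, Sema5a, Unc5b, Epha7 and Nrp1 (0.17) rest on their brightest probes. The second probe gave -0.34 for Plxnb3, 0.05 for Sema5a and -0.04 for Unc5b. The others gave 0.06, 0.14 and 0.33 for Epha7, and -0.07 and 0.13 for Nrp1. None of these other probes passed. With TGF-β1 the next brightest Epha7 probe gave 0.18, which did not pass, against -0.62 for the brightest.

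**Figure D4:**
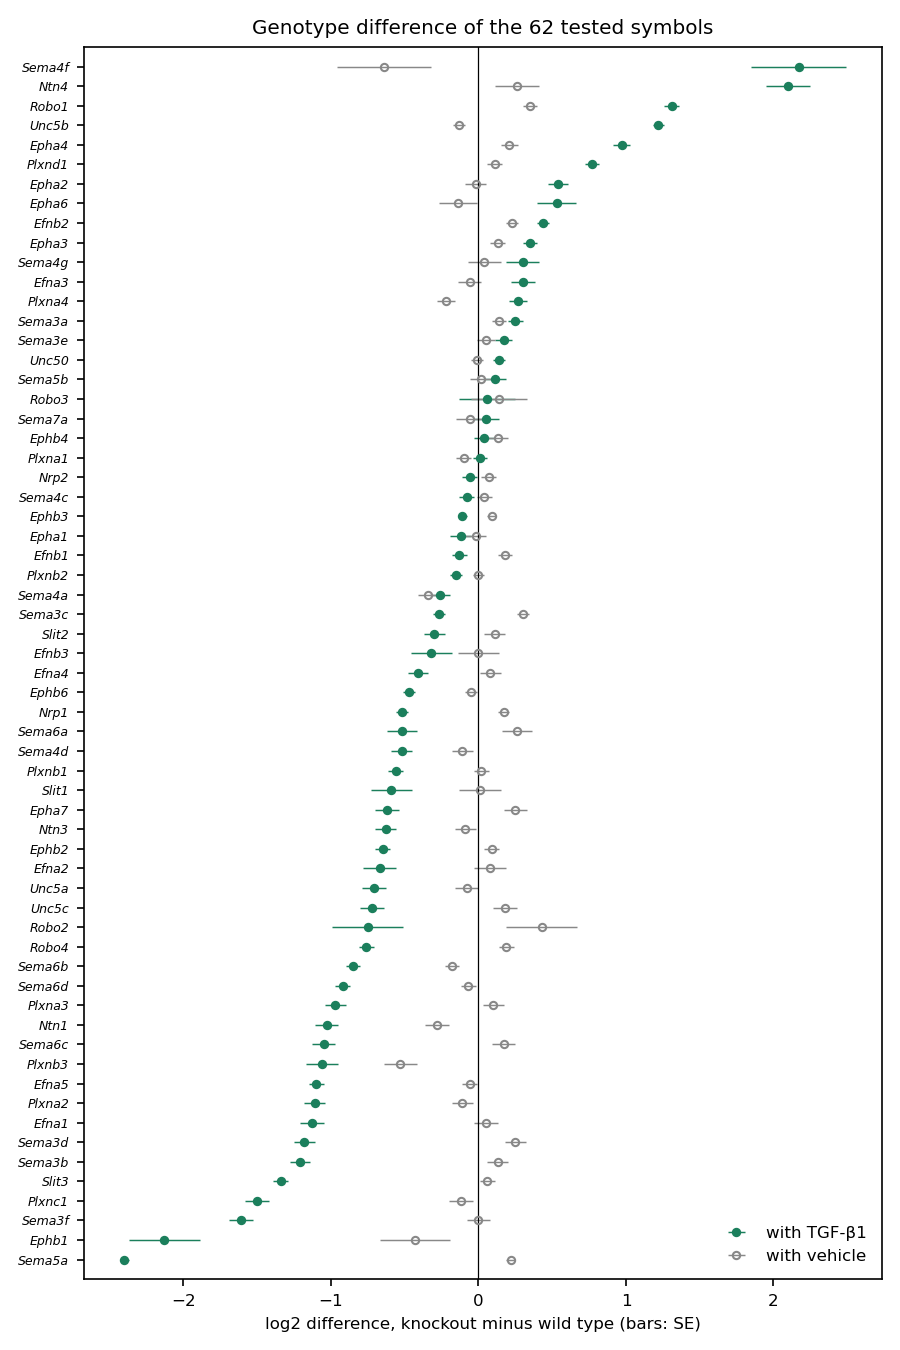
Log2 difference, knockout minus wild type, for each of the 62 tested symbols (rows, sorted by the value with TGF-β1), with TGF-β1 (filled green) and with vehicle (open grey); bars are standard errors from the fit, 4 arrays per group. Sema4f, below background in 3 groups, has no exact difference. Apart from it, the vehicle values stay between -0.53 and 0.43, while the TGF-β1 values reach from -2.40 to 2.10. The TGF-β1 value of Ephb1, below background in knockout cells, has no exact size either. The TGF-β1 values of Plxnb3, Efnb3, Slit1 and Robo2 and the vehicle value of Epha6 are approximate. For these, only some knockout arrays were well above background.

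Some members that neighbour each other on a chromosome moved apart. Robo1 rose and Robo2 fell in knockout cells, and Sema3a rose on the brighter of its 2 probes while Sema3d, the next coding gene on chromosome 5, fell. Sema3b and Sema3f, with 3 coding genes between them on chromosome 9, both fell in knockout cells, where Epha6 and Epha3, with 4 coding genes between them on chromosome 16, both rose. Gene order is from RefSeq (GRCm38.p6).

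Partners and effectors of the guidance receptors moved in both directions with TGF-β1, with more falls than rises. Of 109 listed, 102 were tested, and in knockout cells 36 rose and 46 fell with TGF-β1 (46.6% and 35.9% of all genes), while in wild type cells 34 rose and 38 fell (41.3% and 27.3% of all genes). Their median differences were -0.10 in knockout cells and -0.02 in wild type cells. Between genotypes with TGF-β1, 33 were higher and 38 lower in knockout cells, against 39.7% and 30.5% of all genes. With vehicle 17 were higher and 6 lower, against 7.06% and 6.16% of all genes, so most vehicle calls were higher in knockout cells.

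The list of netrin, RGM and UNC5 partners leaned downwards. In knockout cells 11 of 14 tested genes were lower, against 35.9% of all genes, and 2 were higher. In wild type cells 10 were lower, against 27.3% of all genes, and 3 were higher. Rgma, a repellent that binds neogenin, fell by 2.69 in knockout cells and by 0.86 in wild type cells. Ablim3, an actin-binding protein, fell by 2.72 and 1.79, and Dapk1, a death-associated kinase that binds UNC5B, by 1.79 and 0.44, in the same order.

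Slit and robo partners were split, with 5 higher, 5 lower and 6 not passed of 16 in knockout cells, and 4, 3 and 9 in wild type cells. Over all genes, 46.6% rose and 35.9% fell in knockout cells, and 41.3% rose and 27.3% fell in wild type cells. Enah, an actin-tip protein downstream of robos, rose by 3.07 in knockout cells and by 1.49 in wild type cells, and the heparan sulfate proteoglycan Gpc1 by 1.05 and 0.91. Of 38 plexin and neuropilin partners 16 rose and 16 fell in knockout cells, and 13 rose and 14 fell in wild type cells. Vegfa, the neuropilin-binding growth factor, rose by 1.59 in knockout cells and by 0.99 in wild type cells, Dpysl3, a collapsin response mediator, by 1.78 and 0.81, and the plexin partner Met fell by 1.76 and 0.24. Of 23 ephrin and Eph partners 4 rose and 12 fell in knockout cells, and 6 rose and 10 fell in wild type cells. Sh2d3c, an adaptor that binds Eph receptors, fell by 1.60 in knockout cells and by 1.00 in wild type cells.

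All 8 fibroblast markers passed the filter on dim probes. So did all 11 endothelial, 10 of 11 macrophage and leukocyte, and all 10 pericyte and smooth muscle markers. Passing it therefore does not tell the cell type. The fibroblast markers had a summed signal of 468000 to 506000 in knockout cells with TGF-β1, against 423000 to 449000 with vehicle. In wild type cells it was 508000 to 530000 with TGF-β1, against 402000 to 442000 with vehicle. Of these 8 markers 4 rose and 4 fell with TGF-β1 in knockout cells, and 5 rose and 3 fell in wild type cells. Pdgfra, a receptor of resident fibroblasts, fell by 2.21 in knockout cells and by 0.44 in wild type cells.

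A sum over markers follows its brightest probes, so counts are given beside the other sums. The pericyte and smooth muscle list summed to 282000 to 313000 in knockout cells with TGF-β1, against 72200 to 76500 with vehicle, and to 203000 to 215000 in wild type cells with TGF-β1, against 66800 to 71900 with vehicle. Of its 10 genes 6 rose and 3 fell in knockout cells, and 5 rose and 3 fell in wild type cells (median 0.04). Most of the sum with TGF-β1 was Acta2, the smooth muscle actin of myofibroblasts, which rose by 2.63 in knockout cells and by 2.19 in wild type cells, while Kcnj8, a pericyte channel, fell by 1.78 in knockout cells and by 0.60 in wild type cells.

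Mesothelial markers summed to 11000 to 12600 in knockout cells with TGF-β1, against 20600 to 21400 with vehicle, and to 19900 to 21000 in wild type cells with TGF-β1, against 23400 to 24700 with vehicle. Of 6 markers 1 rose and 4 fell in knockout cells, and 2 rose and 3 fell in wild type cells. Epithelial markers summed to 9460 to 10400 in knockout cells with TGF-β1, against 5560 to 5800 with vehicle, and to 9690 to 10500 in wild type cells with TGF-β1, against 5910 to 6790 with vehicle. Of 6 tested, 3 rose (the keratins Krt8 and Krt18, and Cdh1), 2 fell and 1 did not pass in each genotype, with medians of 0.04 in knockout cells and -0.05 in wild type cells. Sftpc and Scgb1a1, which define alveolar and airway epithelium, were the 2 that fell.

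Markers of neurons and Schwann cells summed to 9560 to 10700 in knockout cells with TGF-β1, against 6580 to 7700 with vehicle, and to 7290 to 8280 in wild type cells with TGF-β1, against 7260 to 7740 with vehicle. Of 7 tested, 3 rose and 4 fell in knockout cells (median -0.78), and 2 rose, 4 fell and 1 did not pass in wild type cells (median -0.76). The part of all these cells in the guidance results was not tested.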

How the data were processed

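Total RNA of 16 cultures was hybridised to single-colour Agilent mouse arrays. The deposited scanner files hold spot intensity on a linear scale, background-subtracted by Agilent Feature Extraction 11.0.1.1, per the file headers and the submitters' processing notes. A second deposited file gives the authors' own log2 values of 9933 probes, whose normalization and probe choice are not given in the sources used here; its columns correlate at 0.999 or more with the log2 intensity, a higher value is brighter, and its column medians were 6.38 to 6.39 for knockout TGF-β1, 6.57 to 6.59 for knockout vehicle, 6.47 to 6.49 for wild type TGF-β1 and 6.60 to 6.61 for wild type vehicle.

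Here intensities of 59305 spots, 0 of them saturated, were log2 transformed, spots of each of 56605 probes averaged, and arrays shifted to a common 75th percentile. A probe was kept if some group had it well above background on each of its 4 arrays (33888 probes, after 27 with outlier marks were left out), and the brightest kept probe stood for a gene. Names came from matching transcript accessions to RefSeq (GRCm38.p6); 32994 probes matched. The arrays were designed on mm9, per the file headers, so gene coordinates are given only for RefSeq promoters. Of 23 members with several kept probes, 6 had 1 that disagreed by a log2 difference of at least 1 or in called direction.

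Tests used limma 3.58.1 (R 4.3.3, version 1.17.8 of data.table), fitting 1 coefficient per group over all arrays, 2-sided, and adjusted over 15394 genes in each of 5 comparisons. The steps were tested on simulated data. A bound sets the bright group's mean against a floor on each dim array: the lowest signal that was well above background there, or the probe's own signal if higher. Per-array values are given for Islr and, in each comparison of 2 groups, for up to 6 largest rises and 6 largest falls among called members whose arrays did not overlap, and for the 6 most positive and 6 most negative called interactions; partner and marker genes are those with the smallest adjusted p per list. Members and lists were chosen with earlier results of these data known. Alternatives covered quantile normalization, normexp background correction (offset 50), the filter, the probe choice, the slide, the replicate number, each array left out and the authors' log2 values. The result of 1 group of partner genes is not reported here.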

Additional observations from a re-analysis of the deposited data

Results flagged for a closer look

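Within the 248 groups of 4 arrays examined (62 members in 4 groups), 9 arrays lay apart from the other 3 of their group by Dixon's test of the gap to the nearest array, a rate below the 1 in 20 that chance gives. They were knockout vehicle array 1 for Epha1 (8.86, others 9.10 to 9.13), Ntn3 (7.55, others 7.69 to 7.71) and Plxna1 (11.04, others 11.12 to 11.13), knockout vehicle array 3 for Epha4 (7.82, others 8.00 to 8.03), and knockout vehicle array 4 for Sema3c (12.34, others 12.40 to 12.41). In wild type cells they were TGF-β1 array 1 for Sema3f (11.88, others 12.15 to 12.20), TGF-β1 array 2 for Sema3d (12.76, others 12.86 to 12.88), TGF-β1 array 3 for Unc5b (12.85, others 12.78 to 12.79) and vehicle array 2 for Unc5c (8.63, others 8.49 to 8.50).

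The interaction term was called for 18 members that the text singles out. It was more positive in knockout cells for Sema4f (2.81), Ntn4 (1.83), Unc5b (1.35), Robo1 (0.96), Epha4 (0.76), Epha6 (0.68), Plxnd1 (0.66) and Epha2 (0.55). It was more negative in knockout cells for Sema5a (-2.62), Ephb1 (-1.70), Sema3f (-1.61), Sema3d (-1.43), Slit3 (-1.40), Plxnc1 (-1.39), Sema3b (-1.34), Sema6c (-1.22), Ephb2 (-0.75) and Sema6b (-0.66). For Sema6c and Ephb2 the second probe gave -0.17 and 0.02, and neither passed. Sema4f and Ephb1 have no exact interaction, since 3 groups of Sema4f and the knockout TGF-β1 group of Ephb1 lay below background, and the bound of Ephb1 does not show a difference in response.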

How the results depend on the processing

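The number of called members stayed within 1.5 times under the alternatives tried, except in the vehicle comparison and in the smaller authors' table. For knockout against wild type cells with vehicle, the 16 called members became 10 with no filter on dim probes, 1 on slide 1, 5 on slide 2 and 9 to 18 when single arrays were left out; the 23 called partner genes became 0 on slide 1, 7 on slide 2 and 14 to 24 when single arrays were left out, with 14 without knockout vehicle array 4. The partner genes called for the interaction became 42 on slide 1. In the authors' log2 table, which holds 37 members and 42 partner genes, 36 and 42 were called for the TGF-β1 response in knockout cells. The wild type response gave 33 and 39, and the genotype difference gave 32 and 39 with TGF-β1 and 10 and 11 with vehicle. For the interaction 28 and 35 were called. Over all genes of that table, 92.1%, 83.2%, 80.1%, 22.1% and 72.8% were called in the same order. Leaving out single arrays gave 53 to 54 called members for the knockout response, 46 to 51 for the wild type response, 51 to 54 for genotype with TGF-β1 and 47 to 49 for the interaction; the partner genes gave 79 to 84, 66 to 74, 66 to 72 and 62 to 65 in that order, and Islr -6.62 to -6.54 with TGF-β1 and -9.45 to -9.33 with vehicle. Quantile normalization moved the median knockout response of all genes to -0.01 and the authors' table to -0.36, from 0.10, and reversed Plxnd1 in knockout cells (-0.07), Ephb3 (-0.09), Nrp2 (-0.11) and Sema4c (-0.22) in wild type cells, and Unc50 in the genotype difference with TGF-β1 (-0.04) and the interaction (-0.01). Normexp reversed the interactions of Ephb1 (0.17) and Plxnb3 (0.08). The mean of all kept probes reversed Ephb2 in knockout cells (0.08) and Nrp2 (-0.31) and Sema4c (0.00) in wild type cells, and in the authors' table Slit2 gave 0.04 for genotype with TGF-β1. The causes were not tested. Of 222 called values, the number that lost its call or reversed was 40 within slide 1, 34 within slide 2, 14 with normexp, 13 with the mean of probes, 12 with no filter, 9 with quantile normalization, 1 with slide as a block, 3 to 13 when single arrays were left out and 3 with the replicate number as a block, which called 53, 50, 53, 16 and 49 members in the 5 comparisons; same-numbered arrays deviated together in part (correlations of -0.034 to 0.218, 13 of 16 arrays closest to their own number), which is a hint from the data, not the design. Groups below background (of Sema4f and Ephb1) allow bounds only. In knockout cells, Plxnb3, Efnb3, Slit1 and Robo2 with TGF-β1 and Epha6 with vehicle were well above background on only some arrays. Their differences from those groups are approximate.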
